A study of Danio rerio with 18 samples.

Results

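Some 5-methylcytosine (m5C) sites of zebrafish polyadenylated RNA lie side by side. A site was counted as clustered when another site of any of the 9 stage lists lay 1 to 10 nt away on the same chromosome and strand. This rule selected 307 of the 9047 distinct sites (3.39%), which carried 797 of the 21214 entries of the lists. The sites formed 150 clusters, of which 143 held 2 sites and 7 held 3 sites, and so gave 157 pairs of consecutive sites. They were assigned to 146 of the 5129 listed genes (2.85%), and no pair was split between genes. RNA of wild-type AB fish was profiled every 2 hours from 0 to 10 hours post fertilisation (hpf), and then at 16 hpf, 24 hpf and 48 hpf. All groups share that strain, and by their labels they differ by age alone. Each sample was a pool of many whole embryos or larvae, and polyadenylated RNA was used throughout. The labels do not say whether stages were handled together, so age cannot be told apart from library handling. Each stage had 2 libraries, 18 in all, and the deposited lists combine both into a single value per site and stage. No value below therefore has a spread between replicates, and every p-value compares pooled reads only.

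m5C in RNA is written by DNMT2 and by methyltransferases of the NSUN family. In mRNA, NSUN2 acts on sites followed by a G-rich stretch, and NSUN6 acts on sites in a UCCA context within a hairpin loop. In bisulfite sequencing an unmethylated cytosine is read as T and a methylated cytosine as C, so the methylation level of a site is the share of C among its C and T reads, and coverage is the sum of these reads. Some other cytosine modifications also resist bisulfite. A transcript of the egg is inherited by the embryo and is largely cleared once the zygotic genome becomes active, so the early stages report mostly on maternal mRNA. Whether neighbouring cytosines were methylated on the same molecule cannot be read from the lists, which give each site on its own.

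Adjacent cytosines made up most of the clustered pairs. The sites of 86 of the 157 pairs were direct neighbours, at a distance of 1 nt, which was 54.8% of the pairs. Each longer distance from 2 to 10 nt held only 4 to 11 pairs, 71 in all or 7.89 pairs per nt. Just beyond the limit the density was much like this, with 7.3 pairs per nt at 11 to 20 nt. Over the 408 pairs at 11 to 100 nt it was lower, at 4.53 pairs per nt. How often cytosines lie side by side in these transcripts was not analysed here. A sharp excess over the nearby distances stood at 1 nt alone. The limit of 10 nt marked no step, as 7 pairs lay at 10 nt and 5 pairs at 11 nt. At 4 hpf the median difference in level was 13.5 percentage points over the 4 pairs at 10 nt and 12.8 points over the 3 pairs at 11 nt. Runs of 3 adjacent positions occurred only in pgp, which encodes phosphoglycolate phosphatase, and in chp2, which encodes a calcineurin B homologous protein. The plus strand held 145 of the clustered sites and the minus strand 162. They lay on 29 chromosomes and scaffolds, 3 of them unplaced, and chromosome 8 had the most, 24 of its 423 listed sites.

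**Figure D1:**
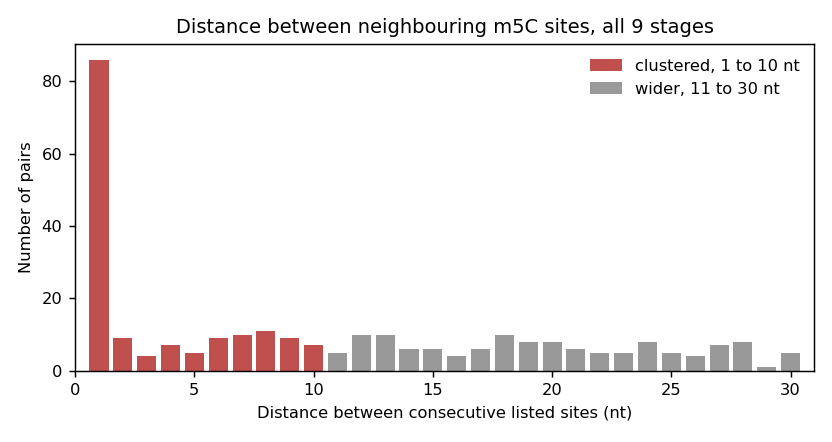
Number of pairs of consecutive listed sites (vertical axis) at each distance in nt (horizontal axis), over the lists of all 9 stages, with clustered pairs in red and wider pairs in grey. The bar at 1 nt stands for 86 pairs, and no other distance from 2 to 30 nt exceeds 11 pairs.

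Clustered sites belonged to the early embryo, as listed m5C sites did in general. The list of 0 hpf held 178 of them in 103 genes, that of 2 hpf 235 in 127 genes, and that of 4 hpf 210 in 120 genes. At 6 hpf 107 clustered sites were listed, at 8 hpf there were 40, and at 10 hpf there were 17. From 16 to 48 hpf the lists had only 2, 2 and 6. As a share of each list they changed little from 0 to 10 hpf, lying between 3.20% at 8 hpf and 3.99% at 6 hpf. The shares of 9.52%, 14.3% and 24.0% at 16, 24 and 48 hpf rest on lists of 21, 14 and 25 sites.

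Clustered sites were found in several lists more often than listed sites at large. A single list held 26.4% of them, against 37.8% of all sites, and 3 lists held 25.4%, against 18.9%. Of the 2 sites of the series found in all 9 lists, 1 was clustered, MT:1862 of a mitochondrial gene. A site had more chances to be counted as clustered when it or its neighbour was in more lists, so these shares are partly set by the rule. Clustered sites were listed again at the next stage at shares of 76.4%, 78.3%, 44.8%, 26.2% and 32.5% in the 5 steps from 0 to 10 hpf. For sites that were not clustered the shares were 71.7%, 73.8%, 40%, 28.2% and 26.5%. The clustered share was thus the higher in 4 of the 5 steps and the lower from 6 to 8 hpf. These shares too are partly set by the rule, which used the lists of all stages. In each step the Wilson 95% interval of the clustered share, such as 38.2% to 51.5% from 4 to 6 hpf, reached the other share. Intervals of this kind cover counting error only, and reads copied by PCR are not separate molecules. Here they also count the sites of a pair as independent, although both were often listed together.

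Both sites of a clustered pair were mostly listed at the same stage. At 2 hpf at least 1 site was listed in 136 pairs, and both were listed in 103 of these (75.7%, 67.9% to 82.2%). At 0 hpf this held for 73 of 107 pairs and at 4 hpf for 87 of 128 pairs. The share was highest among direct neighbours at 2 hpf, at 83.1% or 64 of 77 pairs, and was 66.1% for the pairs at 2 to 10 nt. In wider pairs, at 11 to 100 nt, the shares at 0, 2 and 4 hpf were 60.9%, 55.7% and 56.2%. At 6 hpf the shares came together, at 28 of 81 clustered pairs and 34.5% of wider pairs. Over all stages 149 pairs were listed together at least once, 63 of them at a single stage and 1 at 6 stages, and 8 pairs never were. Among the latter is si:dkey-121h17.7, now named hwa, the maternal gene that specifies the dorsal organiser, a pair chosen for mention after its values were seen. Its site at 21:5431822 had a level of 12.2% (22 of 180 reads) at 0 hpf only, and its neighbour at 21:5431821 had 14.3% (16 of 112 reads) at 2 hpf only, both close to the minimum of 10% that a listed site must reach.

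The levels of clustered sites lay slightly above those of the whole lists. For 0 hpf the clustered median was 20.9% with a 95% interval of 17.7% to 25.3%, and for 2 hpf it was 21.9% with an interval of 18.6% to 25.4%. The median for 4 hpf was 23.8%, between 19.6% and 26.7%, and that for 6 hpf was 20.0%, between 15.6% and 25.4%. Over all listed sites the medians of these 4 stages were 19.4%, 19.3%, 19.2% and 18.9%. The clustered intervals reach below these values except at 4 hpf, and no test was made because the level decides whether a site is listed. Levels of 50% or more occurred at 20.4% of the clustered sites at 2 hpf and 20% at 4 hpf, against 12.7% and 12.9% of all sites. Median coverage of the clustered sites was 127, 142, 191 and 115 reads at 0, 2, 4 and 6 hpf, against 127, 148, 167 and 133 reads over all sites.

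The main question about a pair is how alike its levels are. Neighbouring sites were often far apart in level although they were read from nearly the same molecules. The median difference between the levels of a pair was 15 points over 73 pairs of 0 hpf (95% interval 10.5 to 21.4) and 13.4 points over 103 pairs of 2 hpf (9.53 to 19.5). Over 87 pairs of 4 hpf the median was 17.3 points (11.2 to 25.4), and over 28 pairs of 6 hpf 10.9 points (4.44 to 17.0). For wider pairs it was 11.3, 13.0, 13.9 and 12.8 points at these stages, and the intervals of both classes overlapped at each stage. Of the clustered pairs at 6 hpf, the 14 direct neighbours had a median of 17.1 points (5.30 to 49.4). The 14 pairs at 2 to 10 nt had a median of 6.05 points (0.540 to 11.8). At 4 hpf 21 of the 87 clustered pairs had levels within 5 points of each other, and 39 differed by 20 points or more. The coverage of the sites was nearly equal, with a ratio of the larger to the smaller under 1.2 in 80 of the 87 pairs and a median ratio of 1.02. In wider pairs the median ratio was 1.28.

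The C and T reads of each pair were compared by Fisher's exact test, with Benjamini-Hochberg adjustment at each stage over all pairs at 1 to 100 nt with both sites listed and a threshold of 0.05. At 4 hpf the levels differed in 58 of 87 clustered pairs (66.7%), where 62.5% of all pairs at 1 to 100 nt were called. At 0 hpf 40 of 73 pairs differed (54.8%), against 53.7% of all pairs, and at 2 hpf 54 of 103 (52.4%), against 57.7%. At 6 hpf the count was 11 of 28 (39.3%), against 52.6%, and at 8 hpf 5 of 10, against 37.1%. None of the 3 pairs at 10 hpf was called (12.5% of all pairs). At 48 hpf 1 of 2 was called, and as these were the only pairs tested there, they have no background. From 0 to 10 hpf the shares lie on either side of the background, without a steady direction. Direct neighbours were called in 20 of 42 pairs at 0 hpf (47.6%), in 33 of 64 at 2 hpf (51.6%) and in 38 of 52 at 4 hpf (73.1%). At 6 hpf they were called in 9 of 14 (64.3%). Their share was thus below the background at 0 and 2 hpf and above it at 4 and 6 hpf. Pairs at 2 to 10 nt were called in 64.5%, 53.8%, 57.1% and 14.3% at these stages, the last 2 of 14 pairs. The lower share at 6 hpf therefore joins 2 unlike classes. With a variance that allows for spread beyond counting, a beta-binomial z test called 36, 50, 51, 10 and 4 clustered pairs from 0 to 8 hpf. That variance was set from the stages 2 and 4 hpf and not from the sites of a pair. It therefore does not measure the spread between sites read from the same libraries. No share over all pairs is given for the z test, so its counts do not compare clustered pairs with the rest.

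Across clustered pairs the levels of neighbouring sites were only weakly correlated. In the order of the stages from 0 to 6 hpf, Pearson's r between the upstream and the downstream level was 0.079, 0.251, 0.117 and 0.152, and Spearman's rho was 0.081, 0.274, 0.131 and 0.372. For wider pairs r was 0.143, 0.071, 0.066 and 0.067, and rho was 0.108, 0.146, 0.043 and -0.013. By rho the clustered pairs were thus the higher at 2, 4 and 6 hpf and the lower at 0 hpf. These are descriptions over pairs that share libraries and reads, and both levels are limited from below at 10%. Neither side was regularly the more methylated. The 5′ site was higher in 40 of 73 pairs at 0 hpf, in 53 of 103 pairs at 2 hpf and in 14 of 28 pairs at 6 hpf. At 4 hpf it was higher in 53 of 87 pairs (60.9%, 50.4% to 70.5%), and only there did the Wilson interval stay above 50%. At 4 hpf both sites reached 50% in 7 pairs, a single site did so in 26 pairs, and neither did in 54 pairs. In the 198 wider pairs these counts were 2, 42 and 154. At 0, 2 and 6 hpf both sites reached 50% in 5 of 73, 8 of 103 and 0 of 28 clustered pairs. For wider pairs the counts were 6 of 171, 2 of 204 and 2 of 69. The clustered share was thus the higher up to 4 hpf and not at 6 hpf, without a test.

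**Figure D2:**
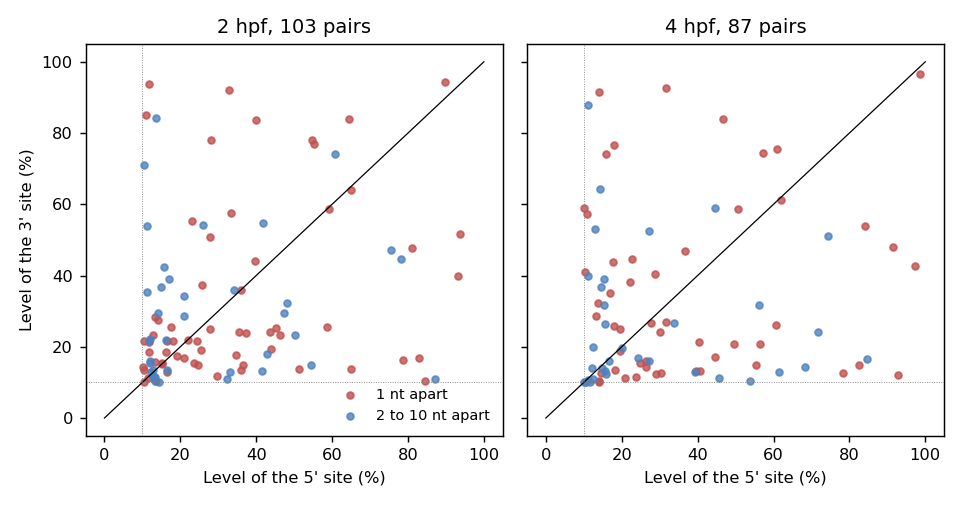
Methylation level in percent of the 3′ site (vertical axis) against that of the 5′ site (horizontal axis) for each clustered pair listed together at 2 hpf and at 4 hpf, direct neighbours in red and pairs at 2 to 10 nt in blue, with equality as the line and the 10% minimum dotted. Points are scattered far from the line on both sides, and 39 of the 87 pairs at 4 hpf differ by 20 points or more.

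The widest gap at 4 hpf, among the 62 pairs with at least 100 reads at both sites, was inside the 3 adjacent cytosines of pgp on chromosome 12, minus strand (Zv9 positions, as throughout). The 5′ site at 12:19594011 had a level of 14.02% (45 of 321 reads, 10.6% to 18.2%), the middle site at 12:19594010 had 91.6% (304 of 332, 88.1% to 94.1%) and the 3′ site at 12:19594009 had 48.0% (160 of 333, 42.7% to 53.4%). The first step was a difference of 77.6 points (adjusted exact p = 2.65e-97, Fisher's exact test) and the second 43.5 points (adjusted exact p = 1.23e-35). A single nucleotide thus separated a nearly complete site from a weak and from an intermediate one.

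The mitochondrial gene listed as AC024175.17 had the second widest gap. The sources used here do not give its RNA type, so this pair, and its site found in all 9 lists, may not be of an mRNA. Its site at MT:1860 had 11.1% (93 of 841 reads) and the site at MT:1862 had 87.9% (719 of 818), 76.8 points apart (adjusted exact p = 1.93e-240). In CIT, the gene of citron kinase of the cytokinetic furrow, the site at 5:2581622 had 84.5% of 330 reads and that at 5:2581618, 4 nt downstream on the minus strand, 16.5% of 340 (adjusted exact p = 7.99e-74). In ptgr1, which encodes prostaglandin reductase, the neighbours 7:25549153 and 7:25549152 had 82.6% and 14.96% (adjusted exact p = 1.68e-55). In slc2a13b, of the sugar transporter family, 25:36754298 and 25:36754299 had 78.4% and 12.5% (adjusted exact p = 4.72e-40). In each of these pairs the weaker site was within 7 points of the listing minimum, so the partner of a strong site could easily have been left out of a list.

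Pairs in which both sites were strongly methylated were fewer. The highest was in tecpr2, a gene of autophagy, where at 4 hpf the sites 17:29357344 and 17:29357343 had 98.5% (202 of 205 reads, 95.8% to 99.5%) and 96.6% (196 of 203, 93.1% to 98.3%). Their difference of 1.99 points did not pass the test (adjusted exact p = 0.296). BAZ1A, which encodes a subunit of a nucleosome remodelling complex, had 61.9% of 559 reads at 17:9907488 and 61.1% of 586 reads at 17:9907487 (adjusted exact p = 0.899). The 3 next pairs by this measure did differ. They were rps9, which encodes a protein of the small ribosomal subunit, at 60.9% and 75.4% (adjusted exact p = 9.99e-19), CABZ01071911.2 at 84.2% and 54.0% (adjusted exact p = 1.09e-18), and chd7, which encodes a chromatin remodelling helicase, at 50.7% and 58.7% (adjusted exact p = 0.0306). The last call was lost under the z test, at an adjusted p of 0.144.

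Depth set how small a difference could be seen. The pairs with the most reads were rps9, nme2b.2, hnrnpm, pabpn1, nudt22 and POLDIP3. In nme2b.2, a nucleoside diphosphate kinase gene, the site at 19:49852842 had 18.9%, 21.7%, 20.3%, 19.8% and 12.1% from 0 to 8 hpf, over 55411 to 6219 reads. Its neighbour at 19:49852843 was listed only at 2 hpf, with 10.5% of 40652 reads. In hnrnpm, the gene of a splicing factor, 22:17763729 and 22:17763730 had 12.4% and 14.8% at 0 hpf, 13.2% and 15.6% at 2 hpf, and 14.7% and 12.7% at 4 hpf, and no difference passed the test over 1051 to 2327 reads. In pabpn1, whose product binds nuclear poly(A) tails, 24:14472436 and 24:14472435 had 12.5% and 30.6%, 14.1% and 27.5%, and 17.0% and 35.1% at these stages, with the 3′ site higher each time (adjusted exact p = 6.79e-46 at 4 hpf). In nudt22, of the Nudix hydrolases, the order was opposite, with 37.6% and 17.0%, 29.6% and 11.8%, and 28.9% and 12.5% at 14:23473187 and 14:23473188.

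The difference within a pair was kept from stage to stage, although the levels of its sites were unlike. Of the 86 pairs listed together at 2 or more stages, 71 (82.6%) had the same site higher at every one, the 5′ site in 40 and the 3′ site in 31. The same held for 135 of 165 wider pairs (81.8%). From 2 to 4 hpf the signed difference had the same direction in 61 of 70 pairs, with r = 0.970 and rho = 0.956 across pairs. From 0 to 2 hpf it did so in 43 of 49 pairs (r = 0.957, rho = 0.937), and from 4 to 6 hpf in 20 of 24 pairs (r = 0.954, rho = 0.949). The size of the gap was smaller after 4 hpf, with a median of 20.5 points at 4 hpf and 10.9 points at 6 hpf in those 24 pairs. These correlations are over pairs, which share libraries, and the stages are separate libraries. They were not made for wider pairs, so they are not shown to be particular to clustered pairs. How far they follow from stable levels of the single sites was not tested.

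**Figure D3:**
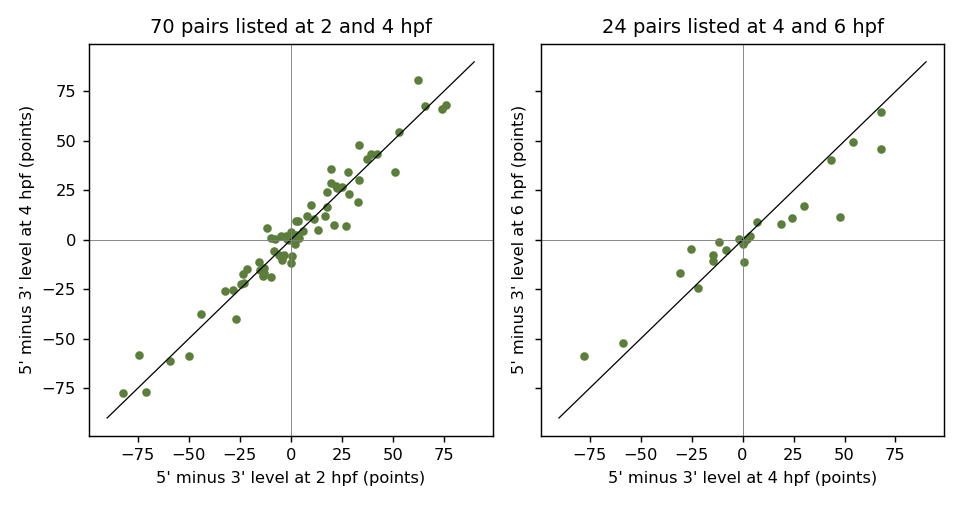
Level of the 5′ site minus that of the 3′ site, in percentage points, at the later stage (vertical axis) against the earlier stage (horizontal axis), for 70 clustered pairs listed at 2 and 4 hpf and 24 pairs listed at 4 and 6 hpf. Each point is a pair, and 61 of 70 and 20 of 24 points lie in the quadrants of equal sign.

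Courses over several stages show both kinds of pair. The pairs listed together at the most stages were in rps9, at 6 stages, and at 5 stages each in MCC, pgp and si:ch211-210c8.6, among others. In MCC, a gene first known as mutated in colorectal cancer, the 3′ site was the stronger. The 5′ site at 5:572160 had 17.8%, 28.0%, 18.0%, 22.9% and 20.8% from 0 to 8 hpf. The 3′ site at 5:572161 had 79.3%, 78.1%, 76.7%, 74.9% and 66.0%, and 24.0% at 10 hpf. In pgp the middle site had 89.9%, 93.8%, 91.6%, 76.7% and 42.6% from 0 to 8 hpf, and the 3′ site 54.3%, 51.6%, 48.0%, 36.4% and 25.0%. The 5′ site of pgp had 11.8%, 11.8%, 14.02% and 18.2% from 0 to 6 hpf and was not listed at 8 hpf.

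In ptgr1 the strong site at 7:25549153 had 78.5%, 82.8%, 82.6%, 56.5% and 17.7% from 0 to 8 hpf, and its neighbour at 7:25549152 had 14.7%, 16.8%, 14.96% and 10.3% from 0 to 6 hpf. In BAZ1A, by contrast, both sites had nearly the same level up to 4 hpf. The site at 17:9907487 had 71.7%, 64.0%, 61.1% and 43.8% from 0 to 6 hpf, and that at 17:9907488 had 68.5%, 65.0%, 61.9% and 32.6%, and 11.5% at 8 hpf. The pair of si:ch211-210c8.6, 5 nt apart, was closer to level, with 40.1%, 50.2%, 33.8%, 39.1% and 29.3% at 23:33966102 and 26.9%, 23.2%, 26.7%, 29.9% and 15% at 23:33966107. Its first site was the higher at each stage, and the difference passed the test at 0 hpf (adjusted exact p = 0.0435) and 2 hpf (adjusted exact p = 1.60e-08) only.

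**Figure D4:**
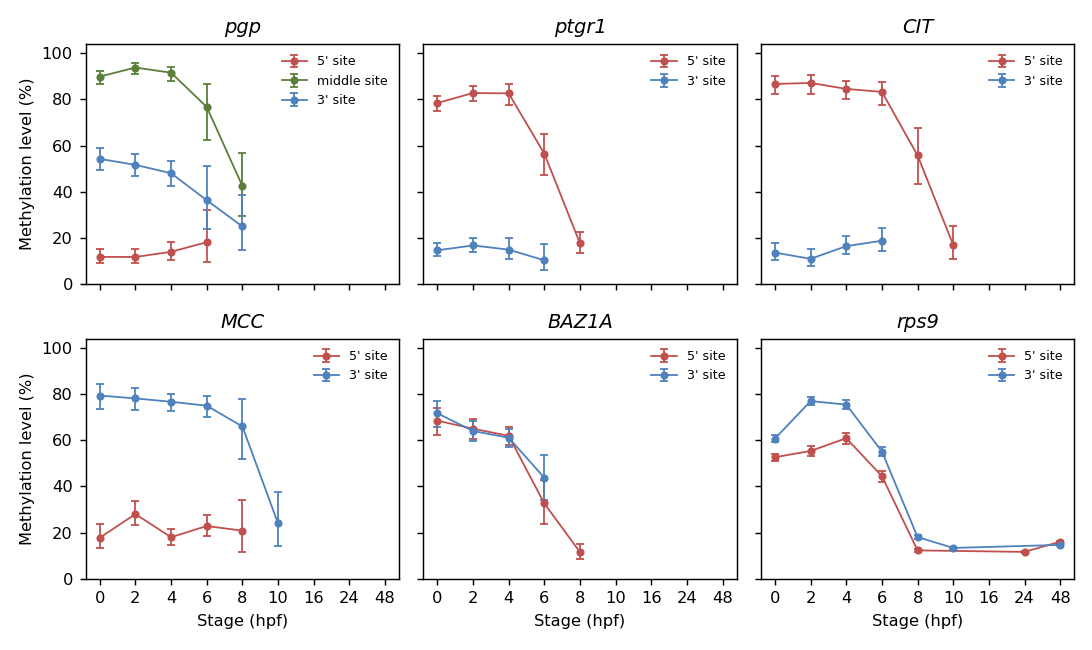
Methylation level in percent (vertical axis) by stage in hpf (horizontal axis, stages evenly spaced) for the sites of the clusters of pgp, ptgr1, CIT, MCC, BAZ1A and rps9, with Wilson 95% intervals as bars, and points only where a site was listed. In pgp, ptgr1, CIT and MCC a strong site stands beside a weaker one at each shared stage, while the levels of BAZ1A differ by at most 11.1 points.

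Where the level of a clustered site changed after 4 hpf, it was lower at the later stage up to 10 hpf. From 0 to 2 hpf 136 clustered sites were listed at both stages, of which 9 rose and 7 fell in Fisher's exact test on each site, adjusted over all 3373 shared sites (4.83% of all shared sites rose and 4.86% fell). From 2 to 4 hpf 6 of 184 rose (background 1.92%) and 7 fell (4.03%). The z test called only 4 rises and 1 fall from 0 to 2 hpf, and 1 rise and 1 fall from 2 to 4 hpf. Its variance was set from 2 and 4 hpf, so the few calls between these stages partly follow from that setting. For z test and unadjusted counts, here and in later steps, no share over all shared sites is given. They describe clustered sites only. Between 4 and 6 hpf 43 of 94 sites (45.7%) fell and 0 rose, where 34.1% of all 2367 shared sites fell and 1.01% rose. At an unadjusted p under 0.05, 47 sites were lower and 0 higher, and by the z test 37 were lower and 0 higher. The median change of the clustered sites was -10.5 points (-12.0 to -5.93), against -5.00 points over all shared sites. They also started higher, at a median of 37.3% at 4 hpf against 27.3%, and ended at 22.8% against 20.3%; the part of the starting level in the larger share was not tested.

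From 6 to 8 hpf 16 of 28 shared clustered sites (57.1%) fell and 0 rose, against 46.2% and 3.58% of all shared sites, with a median change of -13.3 points. Unadjusted, 17 were lower and 0 higher, and the z test called 14 lower and 0 higher. From 8 to 10 hpf 4 of 13 fell and 0 rose (28.7% and 3.89%), with 5 lower and 0 higher unadjusted and 3 lower and 0 higher by the z test. From 10 to 16 hpf, among 2 sites, and from 16 to 24 hpf, with 1 site, none was called, also unadjusted. From 24 to 48 hpf 1 of 2 rose (28.6% of all). It was the site of rps9 at 16:34146365, from 11.6% of 33187 reads to 16.1% of 29498 reads. No z test count is given for this step.

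**Figure D5:**
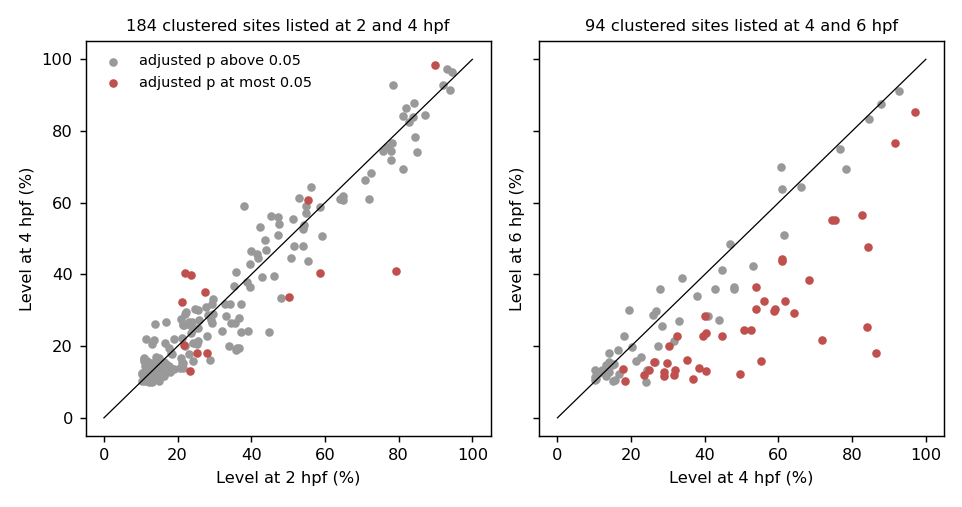
Methylation level in percent at the later stage (vertical axis) against the earlier stage (horizontal axis) for clustered sites listed at both 2 and 4 hpf (184 sites) and both 4 and 6 hpf (94 sites), with sites past the adjusted p of 0.05 in red and equality as the line. From 4 to 6 hpf all 43 red sites lie under the line.

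The largest falls from 4 to 6 hpf, among sites with at least 100 reads at both stages, were in ppp1r10, ENSDARG00000075226, lhfpl2a and chd7. The site at 19:31656691 in ppp1r10, which encodes a nuclear regulatory subunit of protein phosphatase, had 86.4%, 81.9%, 86.5% and 18.1% from 0 to 6 hpf, the last values over 251 and 105 reads (adjusted exact p = 5.15e-34). It fell by 68.4 points and was not listed later. Its neighbour 6 nt away, at 19:31656697, was listed only at 0 hpf, with 13.95% of 43 reads.

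The gene ENSDARG00000075226, which the current name table gives as SMAD4, the shared mediator of TGF-beta signalling, went at 10:580357 from 55.4% of 1071 reads to 15.8% of 455 reads (adjusted exact p = 7.03e-48). The adjacent site at 10:580358 had 15.8%, 13.7% and 14.7% at 0, 2 and 4 hpf. In lhfpl2a the site at 21:339170 went from 68.2% of 239 reads to 38.4% of 198 (adjusted exact p = 4.36e-09). In ppp1r10 and ENSDARG00000075226 the weak neighbour of the falling site was not in the list of 6 hpf.

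In chd7 both clusters fell together. The sites 2:21564055 and 2:21564054 had 50.7% and 58.7% at the earlier stage, and 24.5% and 29.8% at the later (adjusted exact p = 2.55e-15 and 1.39e-17). In the other cluster, 2:21568872 and 2:21568865 went from 44.6% and 59.1% to 22.8% and 30.5% (adjusted exact p = 1.49e-05 and 2.28e-09). All 4 sites had 206 reads or more at both stages, and in each pair the downstream site was the higher at 4 and 6 hpf. In rps9 both sites also fell, from 60.9% and 75.4% to 44.4% and 55.1% (adjusted exact p = 1.12e-19 and 3.27e-39). No such fall was seen in MCC and CIT, where the strong sites at 5:572161 and 5:2581622 had 76.7% and 84.5% at 4 hpf, and 74.9% and 83.3% at 6 hpf (adjusted exact p = 0.803 and 0.878).

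Among the 24 pairs listed together at both 4 and 6 hpf, both sites were lower at 6 hpf in 14, both were higher in 2, and the sites went opposite ways in 8. Both sites passed the test as lower in 6 pairs, a single site did in 8, and neither did in 10. Of single sites in this step, 45.7% of the clustered and 34.1% of all shared sites were called lower. The same counts were not made for wider pairs, and whether the sites of a pair fell together more often than single sites was not tested. Between 0 and 2 hpf, where few sites were called, 26 of 49 pairs went opposite ways. Both sites of traf4b, chosen for mention after the values were seen, rose from 0 to 2 hpf, from 35.2% to 74.1% at 21:37849992 and from 18.4% to 60.7% at 21:37849995 (adjusted exact p = 0.0244 and 0.00649), over 27 to 54 reads.

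Levels within the clusters of 3 sites were of several kinds. In POLDIP3, an mRNA export factor gene, all sites were weak, with 13.4%, 11.5% and 11.3% at 2 hpf, 12.2%, 14.1% and 10.3% at 4 hpf, and 13.2%, 12.7% and 10.5% at 6 hpf, at 3:1984505, 3:1984510 and 3:1984511. The only call in it, between the latter sites at 4 hpf (adjusted exact p = 0.0300), was lost under the z test (0.241). In cramp1l, related to the fly chromatin gene cramped, 3:15493160, 3:15493161 and 3:15493165 were also alike, at 35.8%, 36.0% and 34.0% at 2 hpf and 18.9%, 19.6% and 20.0% at 4 hpf, over 45 to 53 reads.

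In pgp, chp2, LGALS3 and lhfpl2a a stronger site stood beside weaker ones, and zcchc17 is given below. The 3 adjacent sites of chp2, at 15:19372954, 15:19372953 and 15:19372952 from 5′ to 3′, had 10.9%, 57.1% and 74.5% at 4 hpf over 47 to 56 reads. The later pair of these had 54.7% and 78.0% at 2 hpf and 36.2% and 52.7% at 8 hpf, in the same order each time. In LGALS3, a galectin gene, 13:36981136 had 48.6%, 71.8%, 61.1%, 63.8%, 38.5% and 36.2% from 0 to 10 hpf, while 13:36981130 had 15.8% at 0 hpf and 13:36981121 had 11.3% at 0 and at 2 hpf. In lhfpl2a, 21:339161 was listed only at 4 hpf, with 14.2%, and 21:339159 only at 6 hpf, with 10.3%.

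Late embryos had few clustered sites. Pairs were listed together from 10 hpf on in rps9, usf2, zcchc17 and FETUB only. In rps9, 16:34146365 and 16:34146366 had 52.6% and 60.7% at 0 hpf and 55.4% and 76.9% at 2 hpf, and by 48 hpf they had 16.1% and 14.7% of 29498 and 31015 reads. The 3′ site was higher at each stage from 0 to 8 hpf and the 5′ site at 48 hpf (adjusted exact p = 4.08e-06). That last difference was only 1.4 points, called at very high depth, and no z test value is given for it.

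The pair of usf2, a helix-loop-helix transcription factor gene, was listed only late. Its sites 19:11198196 and 19:11198197 had 13.95% and 10.99% at 8 hpf and 18.4% and 17.4% at 10 hpf, and the first had 10% at 48 hpf. The 3 sites of zcchc17, which encodes an RNA-binding zinc knuckle protein, had 11.9% at 19:44600269, 12.5% at 19:44600271 and 15.1% at 19:44600272 at 10 hpf, over 179 to 193 reads. FETUB, which encodes a fetuin secreted by the liver, had 11.9% and 14.3% at 22:41199062 and 22:41199063 at 48 hpf, of 42 reads each. None of these differences passed the test.

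A gene with more listed sites had clustered sites more often, as the rule makes likely. They occurred in 36 of 1190 genes with 2 listed sites, 64 of 717 genes with 3 or 4, and 46 of 215 genes with 5 or more. In 42 of the 146 genes all listed sites were clustered. The genes with the most were cramp1l, with 7 of its 7 sites, chd7, with 4 of 10, and HPDL, with 4 of 7. HPDL, related to hydroxyphenylpyruvate dioxygenase, had 60.9% and 19.1% at 12:47970657 and 12:47970667 at 0 hpf and 61.4% and 13.0% at 4 hpf. The symbol serbp1a covers a pair of gene IDs, each with neighbouring sites on chromosome 6. Their levels were 24.3% and 21.5% at 6:34889966 and 6:34889967, and 34.5% and 17.8% at 6:34821706 and 6:34821707, at 2 hpf. Reads of such close copies may not be told apart, so these values are less certain.

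No functional group stood out by number. The 5 listed genes of the m5C pathway, the 30 of translation factors and the 4 of histones had no clustered site. Ribosomal proteins had them in 1 of 28 genes, rps9. Ubiquitin enzymes had them in 5 of 138 genes (3.62%), among them huwe1, usp4 and birc6, and chromatin regulators in 3 of 88 (3.41%), among them chd7 and BAZ1A. These shares lie near the 2.85% of all genes.

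Splicing factors and RNA helicases had 2 of 83 genes, zinc finger proteins 2 of 64, solute carriers 3 of 71, nuclear pore and transport genes 2 of 39, motor proteins 1 of 39 and zona pellucida genes 1 of 12. In huwe1, a ubiquitin ligase gene, 23:28776893 and 23:28776900 had 14.1% and 31.9% at 0 hpf and 11.9% and 22.2% at 2 hpf.

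In rbm6, an RNA-binding protein gene, 6:42604695 and 6:42604699 had 78.0% and 44.7% at 2 hpf, 71.8% and 24.1% at 4 hpf, and 21.8% and 10.1% at 6 hpf, with the 5′ site higher each time. The zona pellucida gene listed as ZP2 is zpax1 in the current name table. Its site at 20:43772016 had 43.8%, 38.0% and 59.0% at 0, 2 and 4 hpf, and 20:43772017 had 10% at 4 hpf only. In SLC39A14, a metal ion transporter gene, 5:18067470 and 5:18067469 had 45.2% and 25.4% at 2 hpf and 56.3% and 20.7% at 4 hpf. Of the nuclear pore genes, nup214 had 18.4% and 16.5% at 5:75081600 and 5:75081607 at 0 hpf, 14.9% and 36.8% at 2 hpf and 18.2% and 30% at 6 hpf, and nup205 had 27.8% and 25% at 18:11714050 and 18:11714049 at 2 hpf.

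In znf395a, a zinc finger protein gene, 17:15941865 had 49.1%, 41.4% and 45.7% at 0, 2 and 4 hpf, and 17:15941873 had 13.2% at 2 hpf and 11.1% at 4 hpf. The 5′ site was thus the higher at both stages that list the pair. In zc3h13, 1:28732312 had 13.3% at 2 hpf and 12.7% at 6 hpf and 1:28732317 had 15.9% at 4 hpf, so that they never shared a list. In slc5a5, a sodium iodide transporter gene, the neighbours 8:13892266 and 8:13892267 had 12.9% and 11.6% at 0 hpf. In MYO9B, an unconventional myosin gene on an unplaced scaffold, both neighbours had 15.1% of 73 reads at 2 hpf.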

How the data were processed

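Polyadenylated RNA of zebrafish at 9 stages, with 2 libraries per stage, was treated with bisulfite, fragmented and sequenced from strand-specific libraries. The submitters' processing notes name bcl2fastq 2.17, cutadapt, Trimmomatic, HISAT2 2.10, SAMtools and the Zv9 genome. Per the study's methods, reads that HISAT2 left unmapped or mapped to several places were aligned to transcripts, so reads of close gene copies may enter. By the same methods, reads with more than 3 unconverted C were removed. That filter bears on reads over several methylated sites, and its effect was not tested. For each stage the authors deposited a list of called sites with both libraries combined. The deposited coverage is the count of C and T reads, the deposited methylation level is a fraction (printed here in percent), and the deposited p-value of each site was not used. The lists hold no site with fewer than 20 reads or a level under 10%. Coverage times level gave whole C reads at each entry within 1e-06. A site missing from a list may be unmethylated, below a minimum or lost to another filter, and these cases are not separated.

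Distinct sites were sorted by chromosome, strand and position, and pairs are consecutive sites, with 5′ and 3′ read along the strand. Where sites formed a chain with gaps of 1 to 10 nt, they made a cluster. Pairs at 11 to 100 nt served as comparison. Numbers, distances and levels of clustered sites follow from the rule and were described without a test. Levels within a pair, and of a site at consecutive stages, were compared by the two-sided form of Fisher's exact test on reads, with adjustment after Benjamini and Hochberg over all pairs or all shared sites and a threshold of 0.05 (SciPy 1.17.1, pandas 2.3.3, Python 3.11.15). Reads over neighbouring sites are largely the same, so the compared values are not independent. A logistic model across replicates was not used because the lists hold none. Intervals of medians are 95% order statistic intervals, and those of shares and levels are Wilson 95% intervals. Both tests were checked on simulated data that took the coverages of the 4 and 6 hpf comparison (2367 sites), where 32.5% of shifts of 10 points and 71% of shifts of 20 points were recovered with 2 and 7 false calls, and of the pairs at 4 hpf (285 pairs), where 46.5% and 83.1% were recovered with 0 false calls. These simulations held counting error only. In them lower levels were shifted up and higher levels down, and the listing minimum of a level was not applied. The recovered shares therefore do not describe falls alone.

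Named were all clusters of 3 sites, the 6 pairs with the most reads, the 5 pairs listed together at most stages, the 5 genes with most clustered sites, at 4 hpf the 5 widest gaps and the 5 highest lower levels over 100 reads, the 5 largest falls and up to 3 rises from 4 to 6 hpf (there was none), pairs listed together from 10 hpf on, and up to 3 genes of each functional list. A few items that these rules select are not reported here. Members, lists and rules were chosen with earlier results of these data known. Alternatives were a level minimum of 0.2, coverage minimums of 50 and 100 reads, a minimum of 5 C reads, limits of 5 and 20 nt, pairs of 1 nt left out, sites listed at the same stage, clusters of 2 sites only, a mean weighted by coverage, and a z test with beta-binomial variance (correlation of reads 0.00232, set from 2 and 4 hpf). Of the 146 gene IDs, 112 (76.7%) were in the current name table. Sequence context and position within the gene were not analysed here.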

Additional observations from a re-analysis of the deposited data

How the results depend on the processing

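No paired analysis was possible because each list combines the libraries of its stage; for the same reason no replicate could be left out. Of the 101 values recomputed for the comparisons, 73 stayed near the reported ones and 28 moved, where near means a count within 1.5 times or a level within the 95% interval of its median. The number of clustered sites was 217 within 5 nt, 448 within 20 nt, 197 with at least 100 reads, 91 with a level of at least 0.2 and 147 without direct neighbours. Without mitochondrial and unplaced scaffold sites, an alternative chosen after seeing the data, it was 299. Pairs called different numbered 12, 23, 18, 4 and 1 at 0, 2, 4, 6 and 8 hpf with a level of at least 0.2, and 25 at 0 hpf and 3 at 8 hpf within 5 nt. With at least 100 reads they numbered 6 at 6 hpf and 1 at 8 hpf, and with at least 50 reads 3 at 8 hpf. With a level of at least 0.2, clustered sites called higher from 0 to 2 hpf numbered 5, and those called lower 3, 4, 26, 9 and 1 in the consecutive comparisons from 0 to 10 hpf. With at least 100 reads, 26, 8 and 1 were called lower in the last 3 of these. All these settings except the limit of 20 nt leave fewer sites by construction. Shares over all pairs or all shared sites are not given for these settings, so the counts do not compare clustered sites with the rest. By the z test 4 sites rose and 1 fell between 0 and 2 hpf, and between 2 and 4 hpf, the stages that set its variance, 1 rose and 1 fell. The mean level weighted by coverage was 27.9% at 0 hpf and 27.2% at 4 hpf, above the medians, and 15.9% at 8 hpf, below the median of 20.6%; the cause was not tested. Of the 69 values of named pairs and sites under other settings, 2 lost their call, both under the z test (chd7 and POLDIP3). Under the coverage minimums only the adjustment could change these values, as all these sites had at least 100 reads. At 4 hpf BAZ1A, tecpr2, hnrnpm and si:ch211-210c8.6 had no call to lose. Coverage limits the rest, and a partner site below 10% cannot be seen in the lists.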
